A study of Mus musculus with 4 samples.

Results

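The genes of cholesterol and fatty acid synthesis were followed in mouse E14 embryonic stem cells in which Ssrp1 had been targeted. The set was a list of 30 gene symbols fixed by name: 7 enzymes that lead to farnesyl diphosphate, 11 enzymes from squalene to the last sterols, 5 regulators of the sterol response, 6 enzymes of fatty acid synthesis and 1 sterol carrier. All 30 are annotated as protein-coding genes, all were found among the 55353 symbols of the count table, and all 30 passed the filter on low counts. Cells build cholesterol from acetyl-CoA through mevalonate, squalene and lanosterol, and build fatty acids from the same precursor through malonyl-CoA. When membrane sterol falls, SCAP escorts the SREBP transcription factors from the endoplasmic reticulum to the Golgi, where they are cut and released to the nucleus and switch on most of these genes. When sterol is plentiful, the INSIG proteins hold SCAP back.

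There were 2 libraries of cells with the genotype label Ssrp1 KO, made with Cas9 and a guide RNA, and 2 libraries of cells with the label wild type, called control 1 and 2 here. Both groups are of the E14 line, strain label 12910la, and were grown on gelatin in serum with LIF, and serum carries cholesterol and fatty acids. Ssrp1 encodes a subunit of the histone chaperone FACT. The treatment text also describes wild-type cells that received an empty pSuper puro vector and puromycin in connection with a Usp7 shRNA, and does not say whether these controls did. Whether a group's 2 libraries are separate cultures, and how many clones they represent, is not in the labels. The p-values therefore refer to the spread between these libraries, part of which may be technical only.

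Total counts were 22855451 and 23030224 in the libraries labelled knockout and 22611434 and 25344190 in controls. Gm26917 and Gm42418, which can collect reads left from ribosomal RNA, took 6.30% and 4.64% of the counts in the libraries labelled knockout and 9.72% and 10.3% in controls. The targeted gene was not lower: Ssrp1 had 305.5 and 327 CPM (counts per 1000000 counted reads, after TMM scaling) in the libraries labelled knockout and 282 and 306 CPM in controls, with a log2 fold change of 0.11 ± 0.06 (SE, n = 2 per group; edgeR adjusted p 0.226). It was called higher with scaling by library size alone (adjusted p 0.0308), and without knockout replicate 1 its log2 fold change was 0.16. A small Cas9 lesion can leave a transcript in place, so this level does not check the labels, and the samples are called the libraries labelled knockout. The 9 embryonic stem cell markers summed to 3664 and 3579 CPM in the libraries labelled knockout and to 4652 and 4716 CPM in controls, with 2 called higher and 6 lower. The 9 primitive endoderm markers summed to 163 and 157 CPM against 126 and 117 CPM in controls (6 of 8 tested called higher), and the 8 trophoblast markers to 130.3 and 138 CPM against 83.8 and 83.3 CPM (2 of 5 called higher). The 8 fibroblast or feeder markers summed to 31.6 and 34.6 CPM against 37.8 and 39.2 CPM, with Lum, Dcn and S100a4 at 0 in all libraries. The 6 markers of hepatocytes and the 5 of adipocytes, cell types with high lipid synthesis, summed to at most 1.09 CPM in any library. The part of these shifts in the results below was not tested, and in bulk samples fewer cells of a type and less RNA per cell cannot be told apart.

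Single steps of both pathways moved in opposite directions, and the changes were small. Of the 30 genes, 5 rose (Hmgcs1, Sqle, Scap, Fasn and Acaca) and 6 fell (Lss, Cyp51, Insig1, Srebf2, Scd1 and Scd2) at an edgeR adjusted p under 0.05, which is 36.7% of the set. Over all 17482 genes tested 33.6% were called (16.5% higher and 17.2% lower), so the share called in the set lay near the background. The background was higher among abundant genes: 48.9% of the 3126 tested genes at or above 69.5 CPM, the level of the median member, were called, and 10 of the 15 members at that level. The median log2 fold change was -0.05 in the set and 0.00 over all tested genes, and the median size of change, sign ignored, was 0.22 in the set and 0.28 over all tested genes. All 30 fold changes lay between -0.56 and 0.44 on the log2 scale, and 0 reached 1 log2 unit, against 1859 of all tested genes. Summed over the set, the level was 4016 and 3976 CPM in the libraries labelled knockout and 3938 and 4340 CPM in controls, so that the groups overlapped. For 21 of the 30 genes (70.0%) the 2 groups had no overlap, against 66.6% of all tested genes.

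**Figure D1:**
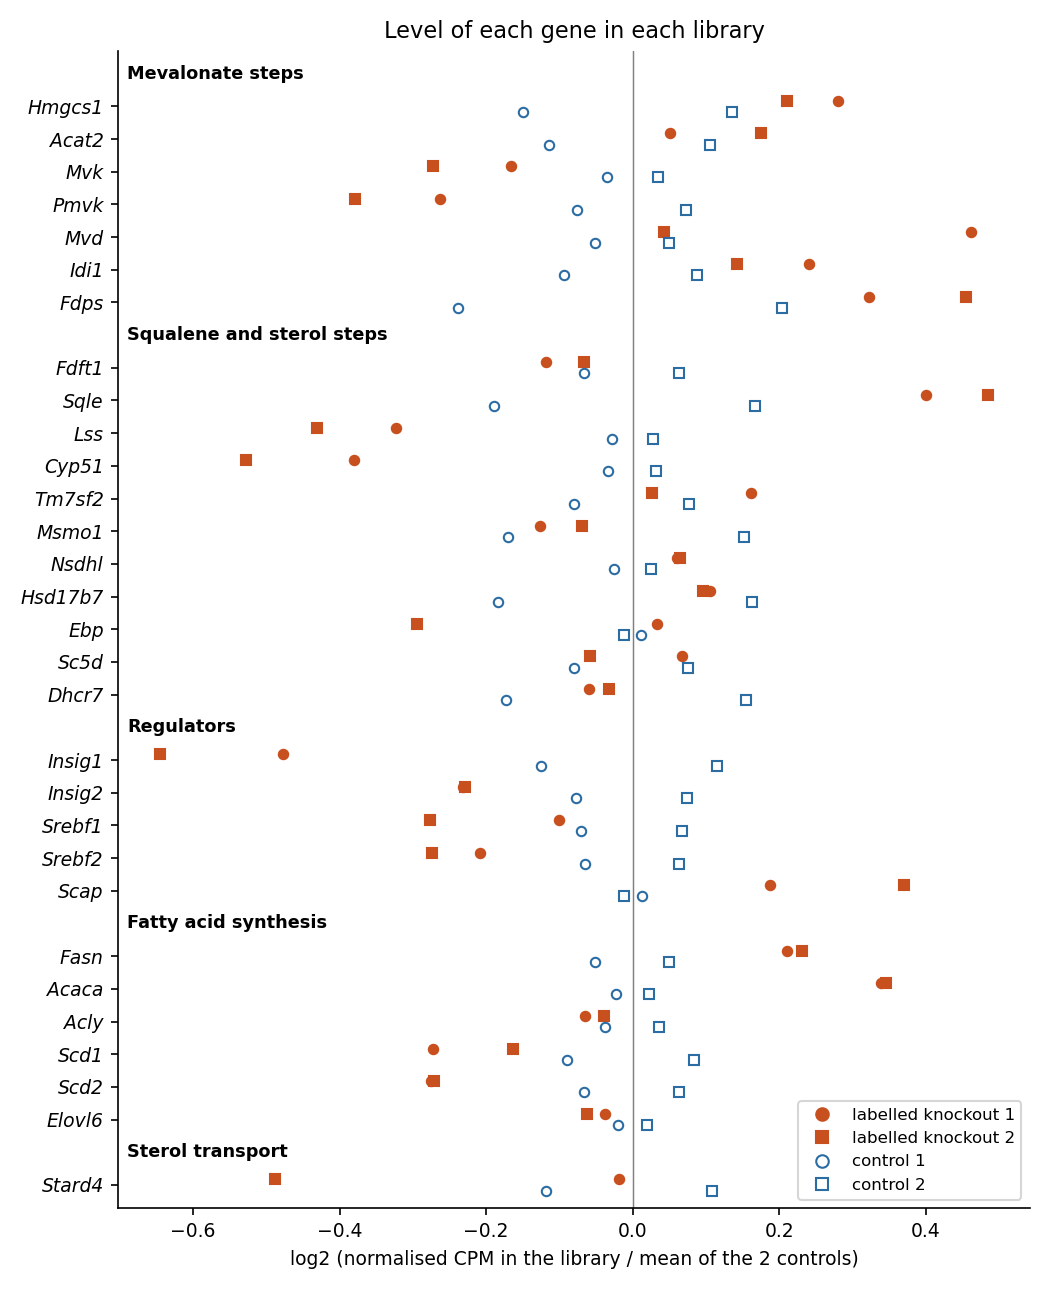
Level of each of the 30 genes in each library, as the log2 ratio of its normalised CPM to the mean of the 2 controls (horizontal axis), with genes in rows by role; filled symbols are the 2 libraries labelled knockout, open symbols the 2 controls, circles replicate 1 and squares replicate 2. Both filled symbols of Insig1, Cyp51 and Lss lie left of their open symbols, both of Sqle and Acaca lie right, and the open square lies right of the open circle for 28 of the 30 genes.

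Of the 7 mevalonate enzymes, 1 rose and 0 fell (median log2 fold change 0.19). Hmgcs1 (chromosome 13, 119690379 to 119708260, mm10), the cytosolic synthase that makes HMG-CoA, had 361 and 344 CPM in the libraries labelled knockout and 268 and 326 CPM in controls. Both libraries labelled knockout were above both controls, and control 2 lay closer to them than to control 1. Its log2 fold change was 0.25 ± 0.08 (SE; 95% interval 0.09 to 0.40, edgeR adjusted p 0.0163); the intervals given here are for each gene alone and are not adjusted for the number of genes. Without control 1 the log2 fold change of Hmgcs1 was 0.10, and without control 2 it was 0.39. A fit with a library left out takes the spread from the other group's pair alone. Its calls and adjusted p are therefore not comparable with those of the main fit, so only fold changes are given for such fits.

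Insig1 went the other way, with the largest change of the set. It encodes a protein that retains SCAP in the endoplasmic reticulum, and like Hmgcs1 it is a classical target of the SREBP factors. Insig1 (chromosome 5, 28071363 to 28078662) had 111 and 99.2 CPM in the libraries labelled knockout, against 142 and 168 CPM in controls, with no overlap. Its log2 fold change was -0.56 ± 0.08 (95% interval -0.73 to -0.39, edgeR adjusted p 1.8e-05). Under the 11 alternatives tried it lay between -0.68 and -0.44, and the call was kept in each fit with all 4 libraries.

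The stretch around the start of Hmgcs1 and of Insig1 is shown, from 250 bases before to 50 bases after the RefSeq start (GRCm38.p6, the build called mm10). Capitals mark the sterol regulatory element TCACNCCAC, the site that SREBP factors bind, and the NF-Y box CCAAT, read on both strands, so that ATTGG marks a box on the opposite strand.
Hmgcs1 (chr13:119690101-119690400, plus strand): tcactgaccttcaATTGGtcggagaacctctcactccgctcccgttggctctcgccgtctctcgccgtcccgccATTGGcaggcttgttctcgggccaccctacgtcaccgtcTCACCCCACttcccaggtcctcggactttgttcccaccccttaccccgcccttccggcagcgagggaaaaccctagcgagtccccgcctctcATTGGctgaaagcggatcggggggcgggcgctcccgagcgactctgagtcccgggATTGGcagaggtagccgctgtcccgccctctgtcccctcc
Insig1 (chr5:28071162-28071461, plus strand): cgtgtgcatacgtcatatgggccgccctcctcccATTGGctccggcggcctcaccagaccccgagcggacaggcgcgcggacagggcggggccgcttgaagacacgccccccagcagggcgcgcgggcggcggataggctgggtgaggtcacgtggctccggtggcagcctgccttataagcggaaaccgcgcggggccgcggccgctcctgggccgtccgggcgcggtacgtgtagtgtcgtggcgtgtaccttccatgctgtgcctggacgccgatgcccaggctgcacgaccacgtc
The Hmgcs1 window held 1 sterol regulatory element, which begins at position -137 relative to the start and overlaps no NF-Y box, 4 NF-Y boxes and 3 Sp1 boxes (GGGCGG). The Insig1 window held 0 sterol regulatory elements, 1 NF-Y box and 3 Sp1 boxes. RefSeq windows were found for 24 of the 30 genes, 32 windows in all (named only: Fdps, Fdft1, Sqle, Scd1, Scd2 and Stard4). The sterol regulatory element was in 1 of these 32 windows (3.12%), that of Hmgcs1, and in 1.24% of all 32817 windows. A share that rests on 1 window does not show enrichment. The NF-Y box was in 65.6% of the 32 windows against 37.4% of all, and the Sp1 box in 75.0% against 35.6%. A match is a description of letters and not a bound site, and an absent match says only that the letters are not in that window. Whether these letters bear on the opposite changes of Hmgcs1 and Insig1 was not tested.

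The other mevalonate enzymes did not pass the test. Idi1, the isomerase that makes dimethylallyl diphosphate, had 63.8 and 59.6 CPM in the libraries labelled knockout and 50.7 and 57.4 CPM in controls, a log2 fold change of 0.19 (95% interval 0.02 to 0.36, edgeR adjusted p 0.0805). It was called with libraries scaled by size alone (0.27, adjusted p 0.013), and without knockout replicate 2 it was at 0.24. Pmvk, which adds the second phosphate to mevalonate, had 12.7 and 11.8 CPM in the libraries labelled knockout and 14.5 and 16.1 CPM in controls (-0.32, interval -0.59 to -0.05, edgeR adjusted p 0.0632). Without knockout replicate 1 it was at -0.38. Mvk, which adds the first phosphate, had a log2 fold change of -0.22 with an interval from -0.48 to 0.04. The intervals of these 3 genes thus allow both a change near 0 and one as large as those of the called members.

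Mvd, the decarboxylase that ends in isopentenyl diphosphate, had 18.3 and 13.7 CPM in the libraries labelled knockout and 12.8 and 13.8 CPM in controls. Here 1 library labelled knockout stood apart and the other lay inside the controls (log2 fold change 0.27, interval -0.03 to 0.56). Without knockout replicate 2 the log2 fold change of Mvd was 0.46, and without knockout replicate 1 it was 0.04. Acat2, the cytosolic thiolase that makes acetoacetyl-CoA, had 54.7 and 59.6 CPM in the libraries labelled knockout and 48.8 and 56.8 CPM in controls (0.11, interval -0.07 to 0.29). Its transcript is 97.7% identical to that of Acat3 over 1477 bases and 98.7% identical to that of Tcp1 over 445 bases. Acat3 had at most 7 counts in any library, but Tcp1 had 20209 and 20411 counts in the libraries labelled knockout and 18244 and 20912 in controls, so the division of reads between Acat2 and Tcp1 is uncertain. Fdps, which makes farnesyl diphosphate, had only 86 and 96 counts in the libraries labelled knockout and 55 and 83 counts in controls, the fewest of the set (0.39, interval -0.14 to 0.91). Fdps shares 26.7% of its merged exon length with the annotated gene Gm43738 on the same strand and has 4 processed pseudogenes at least 95% identical over 200 bases or more, so its reads may have been dropped or divided in counting.

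**Figure D2:**
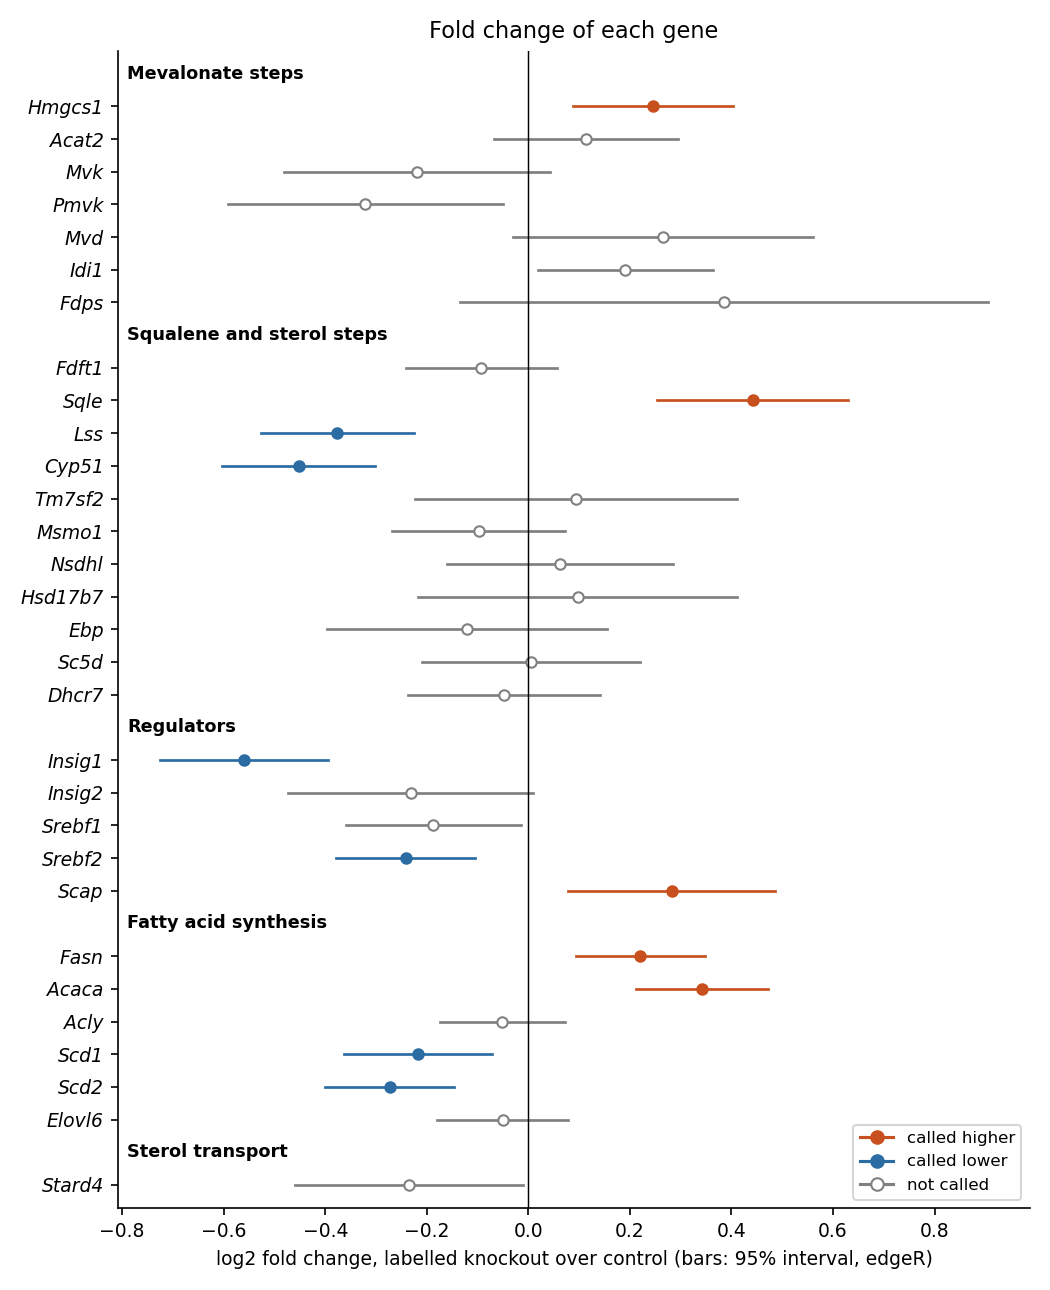
Log2 fold change of each of the 30 genes, libraries labelled knockout over controls (horizontal axis), with its 95% interval from edgeR as a bar and genes in rows by role. Filled points passed an adjusted p of 0.05, with 5 to the right of 0 and 6 to the left, and all points lie between -0.56 and 0.44.

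Among the 11 enzymes from squalene onwards, 1 rose, 2 fell and 8 were not called (median -0.05). Sqle (chromosome 15, 59315077 to 59331192), the epoxidase that commits squalene to sterols and a rate-limiting step of the pathway, had 90.7 and 96.2 CPM in the libraries labelled knockout and 60.3 and 77.2 CPM in controls. It was the largest rise of the set, with a log2 fold change of 0.44 ± 0.09 (95% interval 0.25 to 0.63, edgeR adjusted p 7.13e-04). The libraries did not overlap, though the controls lay further apart than the libraries labelled knockout. Without control 1 the log2 fold change of Sqle was 0.27, and without control 2 it was 0.63.

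The next enzymes in the chain fell. Lss (chromosome 10, 76531588 to 76557138), which folds the epoxide into lanosterol, had 73.8 and 68.5 CPM in the libraries labelled knockout and 90.6 and 94.2 CPM in controls (-0.38 ± 0.07, edgeR adjusted p 3.94e-04). Cyp51 (chromosome 5, 4081145 to 4104746), the cytochrome that removes a methyl group from lanosterol, had 81.4 and 73.5 CPM in the libraries labelled knockout and 103 and 108 CPM in controls (-0.45 ± 0.07, adjusted p 6.5e-05). In both genes the distance between the groups exceeded the distance between the libraries of either group. Under the 11 alternatives the log2 fold change ranged from -0.43 to -0.29 for Lss and from -0.53 to -0.37 for Cyp51. Each fit with all 4 libraries kept both calls.

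The remaining sterol enzymes gave intervals on both sides of 0. Fdft1, the squalene synthase, had 86.7 and 89.8 CPM in the libraries labelled knockout and 89.8 and 98.3 CPM in controls (log2 fold change -0.09, interval -0.24 to 0.06). Its merged exons overlap those of Ctsb on the opposite strand over 18.3% of their length, and Ctsb had 3256 and 3747 counts in the libraries labelled knockout and 3441 and 3844 in controls, so reads could be shared if strand was not used in counting. Msmo1, which oxidises methyl groups of the sterol ring, had 142 and 148 CPM in the libraries labelled knockout, between the 138 and 172 CPM of the controls. Dhcr7, the reductase of the last step to cholesterol, had 60.3 and 61.4 CPM in the libraries labelled knockout, also between the controls at 55.7 and 69.9 CPM.

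For Nsdhl, Hsd17b7, Tm7sf2, Ebp and Sc5d, which remove methyl groups or shift and reduce double bonds of the ring, log2 fold changes lay between -0.12 (Ebp) and 0.10 (Hsd17b7). The widest interval of these was that of Tm7sf2 (-0.22 to 0.41), with 9.93 and 9.04 CPM in the libraries labelled knockout and 8.39 and 9.35 CPM in controls; 12.1% of its merged exon length is shared with Vps51 on the same strand. The narrowest was that of Sc5d (-0.21 to 0.22), at 28.8 and 26.4 CPM against 26.0 and 29.0 CPM in controls. The interval of Ebp reached furthest down (-0.40 to 0.15). Only changes below -0.40 or above 0.41 lie outside the 95% intervals of all of these genes.

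Of the 5 regulators, 1 rose and 2 fell, where 33.6% of all tested genes were called. For all 5 the libraries of the groups did not overlap, as for all 6 fatty acid enzymes and 66.6% of all tested genes. Srebf2 (chromosome 15, 82147181 to 82205379), which encodes the SREBP factor most tied to sterol genes, had 213 and 203 CPM in the libraries labelled knockout and 235 and 257 CPM in controls (log2 fold change -0.24 ± 0.07, edgeR adjusted p 0.0073). With scaling by library size alone the edgeR adjusted p of Srebf2 was 0.0667. Its log2 fold change was -0.31 without control 1 and -0.18 without control 2. Srebf1, which encodes the factor most tied to fatty acid genes, had 59.9 and 53.0 CPM in the libraries labelled knockout and 61.2 and 67.3 CPM in controls (-0.19, interval -0.36 to -0.01, adjusted p 0.0887). Without knockout replicate 1 it was at -0.28, and without knockout replicate 2 it was at -0.10. Counts per gene do not separate its transcripts from different promoters.

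Scap (chromosome 9, 110333288 to 110384950), the escort of the SREBP factors, had 33.0 and 37.5 CPM in the libraries labelled knockout and 29.2 and 28.8 CPM in controls. This rise (0.28 ± 0.10, edgeR adjusted p 0.030) missed the threshold under DESeq2 (adjusted p 0.0751). The log2 fold change of Scap was 0.19 without knockout replicate 2, but stayed near the main value without control 1 (0.29) and without control 2 (0.27). Insig2, the second retention protein, had 17.1 and 17.1 CPM in the libraries labelled knockout and 19.0 and 21.2 CPM in controls (-0.23, interval -0.47 to 0.01, adjusted p 0.133). The summed level of the 5 regulators was 434 and 410.3 CPM in the libraries labelled knockout and 487 and 542 CPM in controls, with no overlap. Most of this sum came from Srebf2 and Insig1, both called lower, while Scap rose.

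In fatty acid synthesis 2 of 6 enzymes rose and 2 fell: the rises were at Acaca and Fasn and the falls at the desaturases. Acaca (chromosome 11, 84129672 to 84401651), the carboxylase that makes malonyl-CoA, had 243 and 244 CPM in the libraries labelled knockout and 189 and 195 CPM in controls (log2 fold change 0.34 ± 0.06, edgeR adjusted p 2.42e-04). Fasn (chromosome 11, 120805846 to 120824547), the synthase that builds palmitate, had 500.4 and 508 CPM in the libraries labelled knockout and 418 and 447 CPM in controls (0.22 ± 0.06, adjusted p 0.008). Under the 11 alternatives the log2 fold change of Acaca lay between 0.31 and 0.43 and that of Fasn between 0.16 (without control 1) and 0.30. Both calls were kept in each fit with all 4 libraries.

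The desaturases fell. Scd2 (chromosome 19, 44293674 to 44306864), the main desaturase gene here, which puts a double bond into stearate and palmitate, had 582 and 584 CPM in the libraries labelled knockout and 673 and 736 CPM in controls (-0.27 ± 0.06, edgeR adjusted p 0.00163). Its paralogue Scd1 (chromosome 19, 44394455 to 44407879), which neighbours it on chromosome 19, had 201 and 217 CPM in the libraries labelled knockout and 229 and 258 CPM in controls (-0.22 ± 0.07, adjusted p 0.0199). The call of Scd1 was lost with scaling by library size alone (edgeR adjusted p 0.149). Without control 2 the log2 fold change was -0.21 for Scd2 and -0.13 for Scd1, and without control 1 it was -0.34 and -0.31. Their transcripts are 95.5% identical over 623 bases, so the division of reads between them is uncertain.

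Acly, which supplies cytosolic acetyl-CoA to both pathways, had 588 and 599 CPM in the libraries labelled knockout and 599 and 631 CPM in controls (-0.05, interval -0.17 to 0.07). Elovl6, which lengthens palmitate to stearate, had 233 and 229 CPM in the libraries labelled knockout and 236 and 243 CPM in controls (-0.05, interval -0.18 to 0.08). For both genes the libraries labelled knockout lay just below the controls, the difference did not pass the test, and its sign flipped with scaling by library size alone (0.03 for each). Acaca has a processed pseudogene, Gm5182, that is 99.2% identical over 6118 bases and had 162 and 124 counts in the libraries labelled knockout and 116 and 137 in controls.

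Stard4, a soluble carrier that moves cholesterol between membranes, was the gene on which the libraries labelled knockout disagreed most. It had 82.4 and 59.6 CPM in the libraries labelled knockout and 77.0 and 90.1 CPM in controls, so 1 library labelled knockout lay between the controls and the other below both (-0.24, interval -0.46 to -0.01, edgeR adjusted p 0.0993). Without knockout replicate 1 the log2 fold change was -0.49, without control 1 it was -0.35, and without knockout replicate 2 it was -0.02.

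The opposite changes within the pathway are restated here as ratios of counts inside each library, which do not depend on scaling between libraries. These pairs were chosen after their values were seen, and the ratios are given as a description with no test. The ratio of Insig1 to Hmgcs1 counts was 0.309 and 0.289 in the libraries labelled knockout and 0.531 and 0.515 in controls. Control 1 and 2 differed by 0.28 in the log2 level of Hmgcs1 and by 0.24 in that of Insig1, yet had nearly the same ratio. The ratio of Scd2 to Fasn counts was 1.16 and 1.15 in the libraries labelled knockout and 1.61 and 1.65 in controls.

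The controls lay further apart for the ratios over Sqle. For Cyp51 to Sqle the ratio was 0.897 and 0.764 in the libraries labelled knockout and 1.72 and 1.40 in controls. For Lss to Sqle it was 0.814 and 0.713 in the libraries labelled knockout and 1.503 and 1.22 in controls. In these 4 pairs both libraries labelled knockout lay below both controls. This follows from the levels given above, where each numerator fell and each denominator rose without overlap, so it adds no support. The ratios of Insig2 and of Scap to Insig1 were higher in both libraries labelled knockout than in both controls: Insig2 to Insig1 was 0.154 and 0.173 in the libraries labelled knockout and 0.134 and 0.126 in controls, and Scap to Insig1 was 0.296 and 0.378 against 0.206 and 0.171 in controls. For 2 other pairs of paralogues the ratios overlapped between the groups: Scd1 to Scd2 was 0.346 and 0.372 in the libraries labelled knockout and 0.340 and 0.350 in controls, and Srebf1 to Srebf2 was 0.282 and 0.261 against 0.261 and 0.262 in controls.

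**Figure D3:**
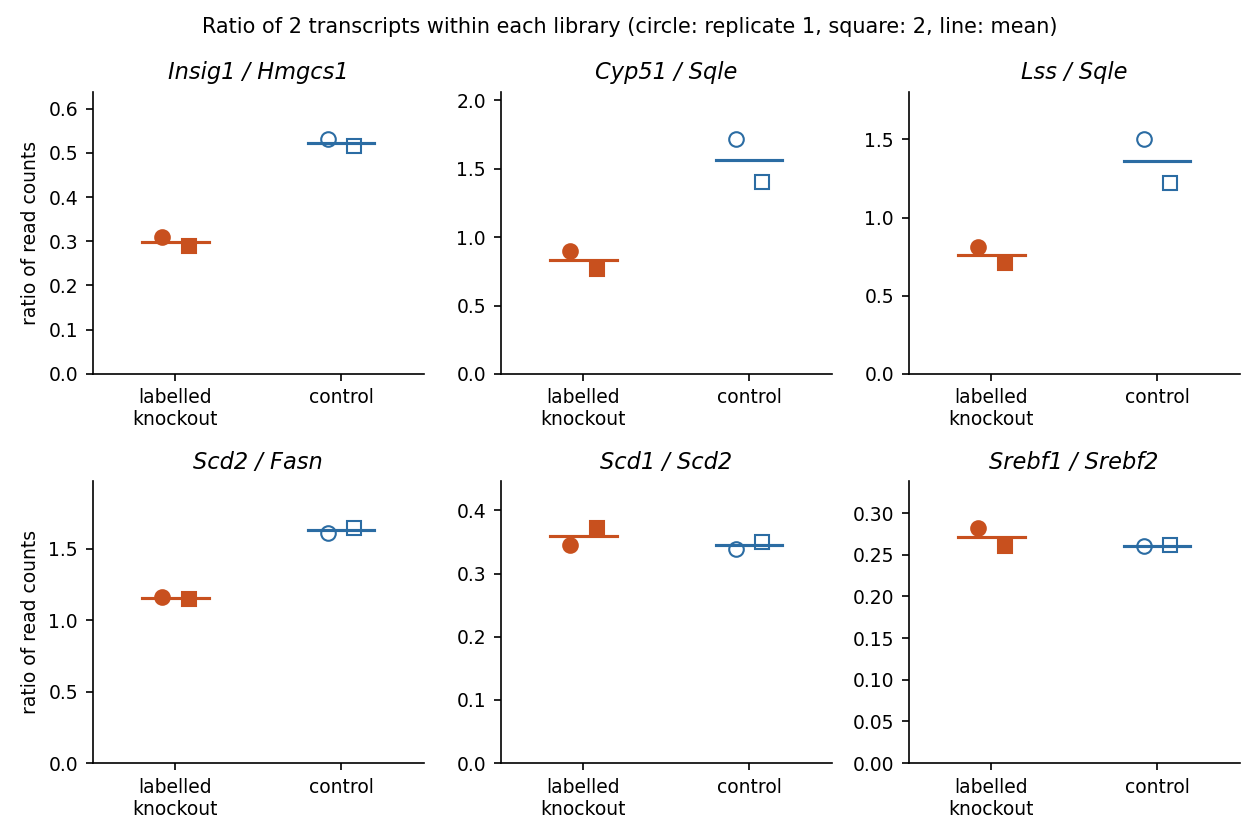
Ratio of the read counts of 2 genes within each library (vertical axes, from 0), libraries labelled knockout on the left and controls on the right of each panel; circles are replicate 1, squares replicate 2 and lines group means. Insig1 over Hmgcs1, Cyp51 and Lss over Sqle, and Scd2 over Fasn are lower in both libraries labelled knockout, while Scd1 over Scd2 and Srebf1 over Srebf2 overlap between the groups.

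The members also varied together between the controls. Of the 30 genes, 28 were higher in control 2 than in control 1, with a median log2 ratio of 0.14, where 50.1% of all tested genes with counts in both were higher in control 2 and their median ratio was 0.00. The exceptions were Ebp and Scap, at -0.02 each. The ratio was largest for Fdps (0.44), Sqle (0.36), Hsd17b7 (0.35), Dhcr7 (0.33), Msmo1 (0.32) and Hmgcs1 (0.28), all enzymes of sterol synthesis. Among the 15 members at or above 69.5 CPM all 15 were higher in control 2 (median 0.13), while 52.9% of the 3126 tested genes at that level were.

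Between the libraries labelled knockout 14 of 30 members were higher in replicate 2, with a median of -0.02 and a range from -0.47 (Stard4) to 0.18 (Scap). For 10 of the 30 genes the controls differed from each other by at least as much as the groups did, 1 of them a called gene (Hmgcs1). Control 2 was also the library with the most counts, and the part of depth or culture in this difference was not tested. The log2 fold changes of the 11 called genes kept their sign under every alternative. In fits with all 4 libraries, calls were lost only for Srebf2 and Scd1 with scaling by library size alone and for Scap under DESeq2. Over all genes, 5092 of the 5877 calls were also made with that scaling and 4423 under DESeq2, against 9 and 10 of the 11. Without control 1 the median log2 fold change of the set was -0.11, and without control 2 it was 0.03.

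**Figure D4:**
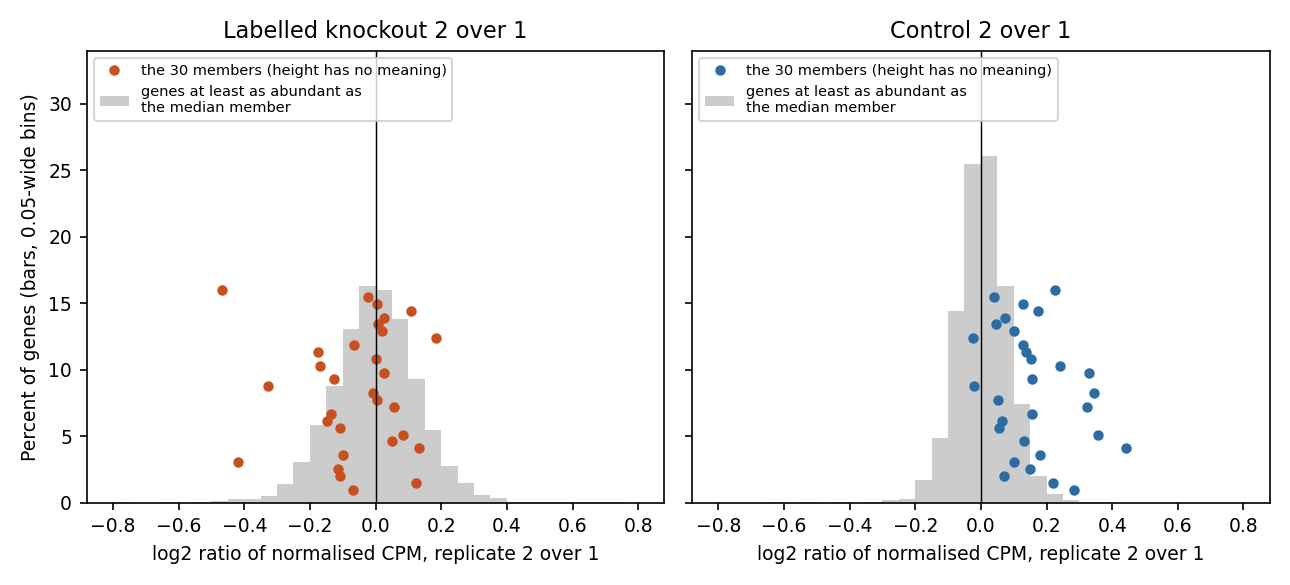
Log2 ratio of normalised CPM between the replicates of a group (horizontal axis, replicate 2 over 1), for the libraries labelled knockout on the left and the controls on the right; grey bars give the percentage of the 3126 tested genes at or above 69.5 CPM in each bin and coloured points are the 30 members, spread vertically for legibility only. Members surround 0 between the libraries labelled knockout, and 28 of 30 lie right of 0 between the controls.

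Levels were compared between genes after division by merged exon length, as CPM per kilobase, which depends on the exons annotated for each gene. Scd2 (107 in the libraries labelled knockout and 129 in controls), Acly (112 and 117) and Hmgcs1 (76.7 and 64.7) were the most abundant by this measure. Scd2 was above Acly in controls and below it in the libraries labelled knockout. Fatty acid enzymes took 5 of the 7 highest places. At the low end stood Tm7sf2 (2.15 in the libraries labelled knockout and 2.01 in controls), Hsd17b7 (2.13 and 1.99) and Fdps (0.917 and 0.699). The set lay between the 22.3 and 98.6 percentiles of the 17119 tested genes with a length. The lower of these is that of Fdps, whose reads may have been dropped or divided in counting, so its place is uncertain.

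Genes that act beside the set were read from the same fit, where 16.5% of all tested genes rose and 17.2% fell, and no list was tested as such. Of 23 other genes of fatty acid activation, elongation and desaturation, 3 rose and 11 fell (median -0.33). Elovl7, an elongase of long saturated chains, had 5.43 and 4.33 CPM in the libraries labelled knockout and 18.7 and 15.8 CPM in controls (-1.82 ± 0.16, edgeR adjusted p 3.5e-08). Acacb, the mitochondrial counterpart of Acaca, had 35.7 and 33.7 CPM against 56.0 and 61.3 CPM in controls (-0.76 ± 0.09, adjusted p 1e-06), and so moved opposite to Acaca. Acss2, which makes acetyl-CoA from acetate, fell as well (-0.65 ± 0.10, adjusted p 3.91e-05). The number of rises in this list was 1 under DESeq2 and 5 with scaling by library size alone.

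Of 13 genes of sterol uptake, transport and esterification, 1 had a positive log2 fold change (0.74), which was not called. In this list 0 were called higher and 6 fell (median -0.30). They include Soat1, which esterifies cholesterol (-0.51 ± 0.07, edgeR adjusted p 7.4e-06), Npc2, which carries it out of lysosomes (-0.38 ± 0.08, adjusted p 0.00101), and Vldlr, a lipoprotein receptor (-0.74 ± 0.17, adjusted p 0.00165). Of 9 genes of sterol efflux and the LXR receptors tested, 1 rose and 3 fell. The export pumps Abca1 (-0.51 ± 0.07) and Abcg1 (-0.50 ± 0.10) fell, and Mylip, a ubiquitin ligase for lipoprotein receptors, rose (0.86 ± 0.16), with edgeR adjusted p between 2.44e-05 and 3.77e-04. Of 10 genes that process or turn over the SREBP system 3 rose and 2 fell. Erlin1, which acts in the degradation of sterol-regulated proteins, fell (-0.47 ± 0.10). The rise with the smallest adjusted p was that of the ubiquitin ligase gene Rnf145 (0.34 ± 0.07). Under DESeq2 only 2 of these genes were called higher.

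Of 15 genes of the non-sterol branches that start from mevalonate products, 1 rose and 3 fell. Ggps1, which makes geranylgeranyl diphosphate from the product of Fdps, had 51.8 and 54.3 CPM in the libraries labelled knockout and 77.5 and 75.8 CPM in controls (-0.53 ± 0.07, edgeR adjusted p 1.57e-05). Coq2, of ubiquinone synthesis, fell (-0.73 ± 0.10) and Zmpste24, the protease that trims farnesylated prelamin A, rose (0.40 ± 0.08). The number of rises was 5 with scaling by library size alone.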

How the data were processed

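RNA was measured in 4 libraries of ribosomal-RNA-depleted, strand-specific total RNA. The authors deposited raw, whole-number read counts for each gene symbol; cutadapt, HISAT2 and featureCounts with build mm10 are named in the submitters' processing notes. Versions, annotation and strand setting of the counting, and the handling of multiply mapped reads, were not given in the sources used here. In the column names the letters OK stand where the sample titles have KO.

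Genes were filtered with filterByExpr (minimum count 10, minimum total 15), scaled by TMM and compared with the quasi-likelihood F test of edgeR 4.0.16 in R 4.3.3 (2-sided, group as the only term, 2 residual degrees of freedom). P-values were adjusted by Benjamini-Hochberg over the 17482 genes left, and 0.05 was the threshold. The standard error is the fold change divided by the square root of F, and intervals use the test's total degrees of freedom. The script was tested on simulated data. DESeq2 1.42.0, other scalings and filters, single libraries left out and a replicate block were tried as alternatives. With a library left out, 1 group had 1 library and the spread came from the other pair alone. The calls of those fits are not comparable with the main ones. The chi-square between replicates, per degree of freedom, was 11.5 for the libraries labelled knockout and 3.37 for controls, so neither pair is a repeat of 1 library. Positions and merged exon lengths are from GENCODE M21; near-identical copies were found with BLAST 2.17.0 (at least 95% identity over 200 bases); promoter windows are RefSeq's (GRCm38.p6).

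The members and lists were chosen with earlier results of these data known, so counts and medians stand beside those of all genes and no list was tested. All 30 members are named; of each related list, the 3 called genes with the smallest adjusted p are, except 1 gene that is not reported here.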

Additional observations from a re-analysis of the deposited data

How the results depend on the processing

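The calls for Insig1, Cyp51, Lss and Acaca kept their direction and their side of the threshold under all 11 alternatives; the other 7 calls did not, as given with each gene. Leaving out 1 library at a time gave 1 to 6 members higher and 3 to 9 lower, and 1915 to 2995 of all genes higher; the lowest counts of rises came without control 1; the cause was not tested. With scaling by library size alone 6 members were higher and 4 lower, against 5 and 6 with TMM. Over all genes 63.7% of the calls were then rises (3887 higher and 2215 lower), against 49.0% with TMM (2877 and 3000), the median of all genes moved by 0.09 and that of the members was 0.03. Among the genes named, signs flipped only for some that were not called: with that scaling Dhcr7 was at 0.04, Acly at 0.03 and Elovl6 at 0.03, and without the low-count filter Sc5d was at -0.0033. With 1 library left out, Msmo1 ranged from -0.26 to 0.07, Hsd17b7 from -0.07 to 0.28, Ebp from -0.29 to 0.03, Sc5d from -0.08 to 0.08 and Dhcr7 from -0.21 to 0.12. Stard4 was called lower without the filter (adjusted p 0.0122) and with the replicate block (0.0053). With the replicate block 5 members were higher and 7 lower; the groups share only the numbers 1 and 2, and deviations of same-numbered libraries correlated at 0.023 over 10785 genes, so the numbers were not taken as pairs. Fdps, with under 100 counts in each library, has the widest interval.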

Other observations

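Fatty acid oxidation, the reverse of the synthesis followed above, also held genes that moved in opposite directions. Of 15 tested genes 4 rose and 2 fell, a share near that of all tested genes (16.5% higher and 17.2% lower). Cpt1a, which admits long-chain fatty acids to mitochondria and is inhibited by malonyl-CoA, had 78.4 and 73.5 CPM in the libraries labelled knockout and 176 and 169 CPM in controls (log2 fold change -1.18 ± 0.07, edgeR adjusted p 7.27e-11), a larger change than that of any synthesis gene in the set of 30. The dehydrogenases Acadm (117 ± 0.598 CPM in the libraries labelled knockout and 84.7 ± 0.302 CPM in controls, SD, n = 2) and Acadvl (23.6 ± 1.35 and 15.1 ± 0.618 CPM) rose. The number of rises among the oxidation genes was 3 under DESeq2 and 6 with scaling by library size alone.

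Of 19 genes of glycerolipid synthesis 2 rose and 5 fell, with both directions together again near the share of all tested genes. Agpat3, an acyltransferase of phospholipid synthesis, had 16.9 and 16.5 CPM in the libraries labelled knockout and 41.7 and 43.4 CPM in controls (-1.35 ± 0.10, edgeR adjusted p 2.85e-09). The lipin genes, which encode phosphatidate phosphatases, moved both ways: Lpin2 rose (0.86 ± 0.13) and Lpin3 fell (-0.82 ± 0.15). The number of rises in this list was 6 with scaling by library size alone.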
